A study of Mus musculus with 37 samples.

Results

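The genes described here are 6 of the 57180 genes of the deposited count tables: Gabrb1 and Gabrb2 (beta subunits), Gabrg1 and Gabrg3 (gamma subunits), Gabre (the epsilon subunit) and Gabrq (the theta subunit). They were chosen by name, as the rows whose trimmed gene symbol is one of these, and all 6 passed the filter on low counts in every comparison. Their RNA was measured by TRAP-seq, in which ribosomes carrying GFP-tagged L10a are pulled down from homogenised tissue and their mRNA is sequenced. DAT;NuTRAP mice (from DAT-IRES-Cre males) carry Cre at the dopamine transporter gene, VGAT;NuTRAP mice (from Vgat-IRES-Cre males) carry Cre at the vesicular GABA transporter gene, and mice of both models carry 1 copy of the NuTRAP transgene at Rosa26 from homozygous mothers, which makes the tagged ribosomal protein once Cre removes a stop. The tissue was ventral midbrain with the SNc and VTA, and each library came from 1 mouse. DAT;NuTRAP gave 19 libraries, 9 from Old mice (5 male, 4 female) and 10 from Young mice (5 male, 5 female). VGAT;NuTRAP gave 18 libraries, 8 from Old mice (3 male, 5 female) and 10 from Young mice (4 male, 6 female). Old mice were 21 months old, except 1 VGAT;NuTRAP female of 24 months, and Young mice were 7 to 10.5 months old. The labels also divide the libraries into a second batch (11 DAT;NuTRAP and 12 VGAT;NuTRAP) and a first batch (8 DAT;NuTRAP and 6 VGAT;NuTRAP).

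GABA-A receptors are pentameric chloride channels opened by GABA, the main inhibitory transmitter of the brain. A typical synaptic receptor combines alpha and beta subunits with a gamma subunit; beta subunits are required for assembly and hold one side of the GABA site, and gamma subunits place receptors at synapses and form the benzodiazepine site with an alpha subunit. The epsilon and theta subunits are rarer, are known mainly from hypothalamic and monoaminergic nuclei, and can stand in receptors of unusual make-up. In the ventral midbrain, GABA neurons inhibit dopamine neurons through these receptors, and both kinds of neuron carry them.

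Library totals ran from 13841253 to 38235015 counts. The transporter and enzyme genes that mark the models followed the labels but were present in both: the dopamine transporter Slc6a3 averaged 3277 ± 490.2 CPM in DAT;NuTRAP (SD, n = 19) and 797 ± 243 CPM in VGAT;NuTRAP (SD, n = 18), and the GABA-synthesising enzyme Gad1 averaged 135 ± 51.4 CPM in DAT;NuTRAP and 1798 ± 314 CPM in VGAT;NuTRAP. CPM are counts scaled to a common library total with TMM factors. All 8 dopamine neuron markers were higher in DAT;NuTRAP and all 8 GABA neuron markers were lower. All 10 astrocyte, 9 of 9 oligodendrocyte and 5 of 5 endothelial markers were also higher in DAT;NuTRAP. Of 8 microglia markers, 0 passed. Summed astrocyte markers were at 539 to 1760 CPM in DAT;NuTRAP and 203 to 560 CPM in VGAT;NuTRAP. The part of these other cells in the results below was not tested. In such bulk pulldowns, fewer tagged cells and less RNA per cell cannot be told apart.

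The genes lie in the clusters that GABA-A receptor genes form in mammals, given here for mouse GRCm39, the build the authors aligned to (mm39). Gabrg1 (chr5:70906506-70999960, minus strand) and Gabrb1 (chr5:71815456-72319431, plus strand) flank the alpha subunit genes Gabra2 and Gabra4. Gabrb2 (chr11:42310493-42523417, plus strand) stands in a cluster with Gabra6, and Gabrg3 (chr7:56366213-57036936, minus strand) beside Gabra5. Gabre (chrX:71299605-71318409, minus strand) and Gabrq (chrX:71868784-71886208, plus strand) lie on either side of Gabra3. Exons of Gabrb2, Gabrg1, Gabre and Gabrq overlap no exon of another annotated gene, whereas 4.31% of the exon bases of Gabrb1 and 3.07% of those of Gabrg3 lie in exons of genes on the other strand. Whether counting used strand is not given in the sources used here.

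The start regions of the members the results turn on are shown here, each from 250 bases before to 50 bases after the start of the Ensembl canonical transcript in GENCODE M39. Gabrb2 and Gabrg1 are shown because they differed most between the cell types, and the X-linked pair Gabre and Gabrq because the same VGAT;NuTRAP libraries were highest for both. The windows are chr11:42310243-42310542 (plus strand) for Gabrb2, chr5:70999911-71000210 (minus strand) for Gabrg1, chrX:71318360-71318659 (minus strand) for Gabre and chrX:71868534-71868833 (plus strand) for Gabrq. Each is written 5′ to 3′ along its gene, and capitals mark CG dinucleotides.
Gabrb2: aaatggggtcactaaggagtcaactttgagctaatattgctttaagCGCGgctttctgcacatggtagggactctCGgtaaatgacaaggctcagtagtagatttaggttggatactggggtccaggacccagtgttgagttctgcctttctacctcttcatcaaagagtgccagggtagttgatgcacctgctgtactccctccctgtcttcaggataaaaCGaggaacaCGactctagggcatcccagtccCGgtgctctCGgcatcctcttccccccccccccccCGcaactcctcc
Gabrg1: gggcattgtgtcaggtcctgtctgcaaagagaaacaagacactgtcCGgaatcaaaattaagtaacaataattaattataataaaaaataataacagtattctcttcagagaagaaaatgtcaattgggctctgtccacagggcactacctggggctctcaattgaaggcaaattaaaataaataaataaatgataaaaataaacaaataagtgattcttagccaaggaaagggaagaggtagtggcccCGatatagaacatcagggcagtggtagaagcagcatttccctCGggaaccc
Gabre: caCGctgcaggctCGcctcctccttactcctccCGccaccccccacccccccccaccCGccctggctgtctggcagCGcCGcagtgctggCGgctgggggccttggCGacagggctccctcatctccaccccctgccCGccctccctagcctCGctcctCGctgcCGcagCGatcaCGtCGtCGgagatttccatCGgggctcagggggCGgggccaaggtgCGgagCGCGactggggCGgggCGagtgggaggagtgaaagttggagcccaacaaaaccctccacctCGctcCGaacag
Gabrq: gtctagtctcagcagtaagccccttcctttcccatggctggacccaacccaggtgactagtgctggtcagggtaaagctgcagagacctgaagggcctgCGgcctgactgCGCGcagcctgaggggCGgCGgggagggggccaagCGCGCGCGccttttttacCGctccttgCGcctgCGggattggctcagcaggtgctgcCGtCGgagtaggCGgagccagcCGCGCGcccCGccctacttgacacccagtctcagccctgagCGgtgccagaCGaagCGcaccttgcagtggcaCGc

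These windows held 8 CG dinucleotides in Gabrb2, 3 in Gabrg1, 25 in Gabre and 23 in Gabrq, against a median of 11 over 21770 protein-coding genes. Gabrb1 had 8 and Gabrg3 had 14. Of all windows, 82.8% held fewer CG dinucleotides than that of Gabre and 78.8% fewer than that of Gabrq, whereas 19.4% held fewer than that of Gabrg1. On either strand, the GC box GGGCGG was found 4 times in Gabre, 2 times in Gabrq and not in Gabrb2 or Gabrg1, and 42.5% of all windows held it. The CCAAT box CCAAT was found once each in Gabrg1 and Gabrq, a motif in 39.9% of windows. Neither TATAAA (13.2% of windows) nor the cyclic AMP response element TGACGTCA (2.44%) was found in these 4 windows. The CG dinucleotides inside GC boxes are part of both counts.

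Per length of exon, Gabrb1 and Gabrq were high among the 6 genes in DAT;NuTRAP and Gabrb2 was highest in VGAT;NuTRAP, but the place of Gabrb2 in DAT;NuTRAP differed between the batches. On the scale of CPM per kb of exon in DAT;NuTRAP, Gabrb1 stood at 6.69 ± 1.71, Gabrq at 4.84 ± 1.21, Gabrb2 at 3.85 ± 2.97, Gabrg1 at 1.87 ± 0.74, Gabrg3 at 1.38 ± 0.54 and Gabre at 0.36 ± 0.19 (SD, n = 19). In VGAT;NuTRAP the same scale gave Gabrb2 at 27.9 ± 4.53, Gabrb1 at 9.40 ± 2.27, Gabrg1 at 6.34 ± 1.45, Gabrq at 4.70 ± 1.79, Gabrg3 at 2.51 ± 0.46 and Gabre at 1.00 ± 0.74 (SD, n = 18). Neighbours in this order that differed by less than the larger of their SDs were Gabrq and Gabrb2, Gabrb2 and Gabrg1, and Gabrg1 and Gabrg3 in DAT;NuTRAP, and Gabrg1 and Gabrq in VGAT;NuTRAP. In DAT;NuTRAP Gabrb2 stood at 1.53 ± 0.71 CPM per kb in the 11 second-batch libraries, close to Gabrg1 at 1.64 ± 0.55, and at 7.03 ± 1.401 in the 8 first-batch libraries, above Gabrb1 at 5.93 ± 1.02. The length used was that of all annotated exons of a gene merged, and the order between genes depends on it. In CPM, first-batch Gabrb2 lay below Gabrb1, at 77.2 ± 15.4 against 100 ± 17.2. Its pooled level and share in DAT;NuTRAP therefore lie between those of the batches. Gabrb2 made up 18.6% ± 12.1 of the summed level of the 6 genes in DAT;NuTRAP (5.26% to 37.1% in single libraries) and 54.2% ± 9.39 in VGAT;NuTRAP. Gabrq made up 25.9% ± 5.83 in DAT;NuTRAP and 8.95% ± 2.95 in VGAT;NuTRAP, and Gabrb1 36.3% ± 9.50 in DAT;NuTRAP and 17.98% ± 3.56 in VGAT;NuTRAP.

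**Figure D1:**
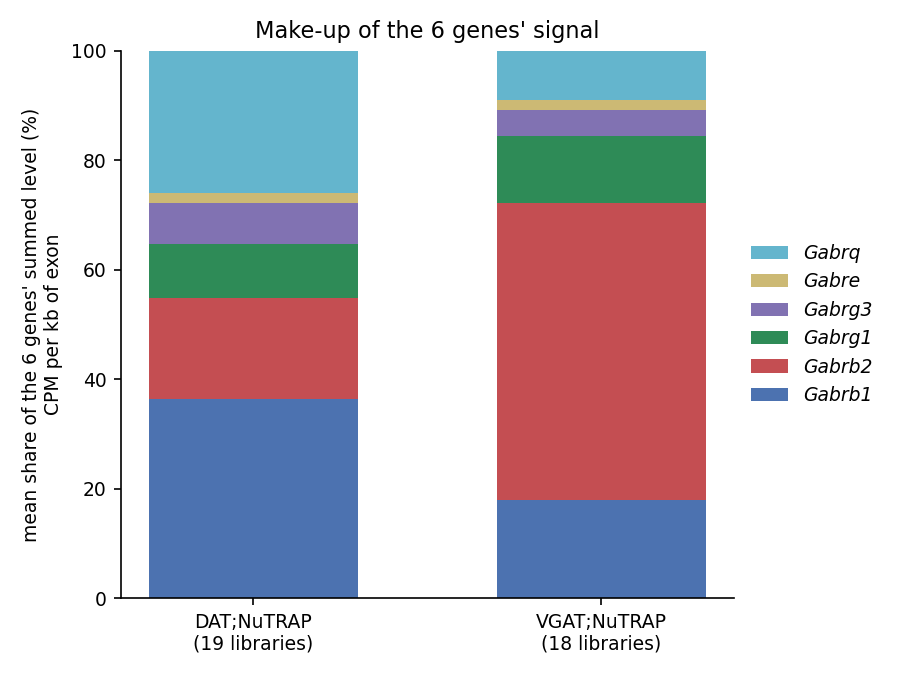
Mean share (%) of each gene in the summed level of the 6 genes, in CPM per kb of exon, for 19 DAT;NuTRAP libraries (left) and 18 VGAT;NuTRAP libraries (right). Gabrb2 takes 18.6% in DAT;NuTRAP, a mean over batches with separate Gabrb2 levels (5.26% to 37.1% in single libraries), and 54.2% in VGAT;NuTRAP, and Gabrq takes 25.9% in DAT;NuTRAP and 8.95% in VGAT;NuTRAP.

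The first comparison asked how the 2 kinds of neuron differ. Of the 6 genes, 5 were lower in DAT;NuTRAP than in VGAT;NuTRAP with both ages together, and none was higher. Across all 16898 genes tested, 60.5% passed an adjusted p of 0.05 in this comparison with 30.4% lower and 30% higher in DAT;NuTRAP. The median log2 fold change was -1.02 over the 6 genes and 0.01 over all genes tested. With Young mice alone 5 of the 6 were lower (49.8% of all genes called, 25.4% lower), and with Old mice alone 4 were lower (46.8% called, 24.1% lower).

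**Figure D2:**
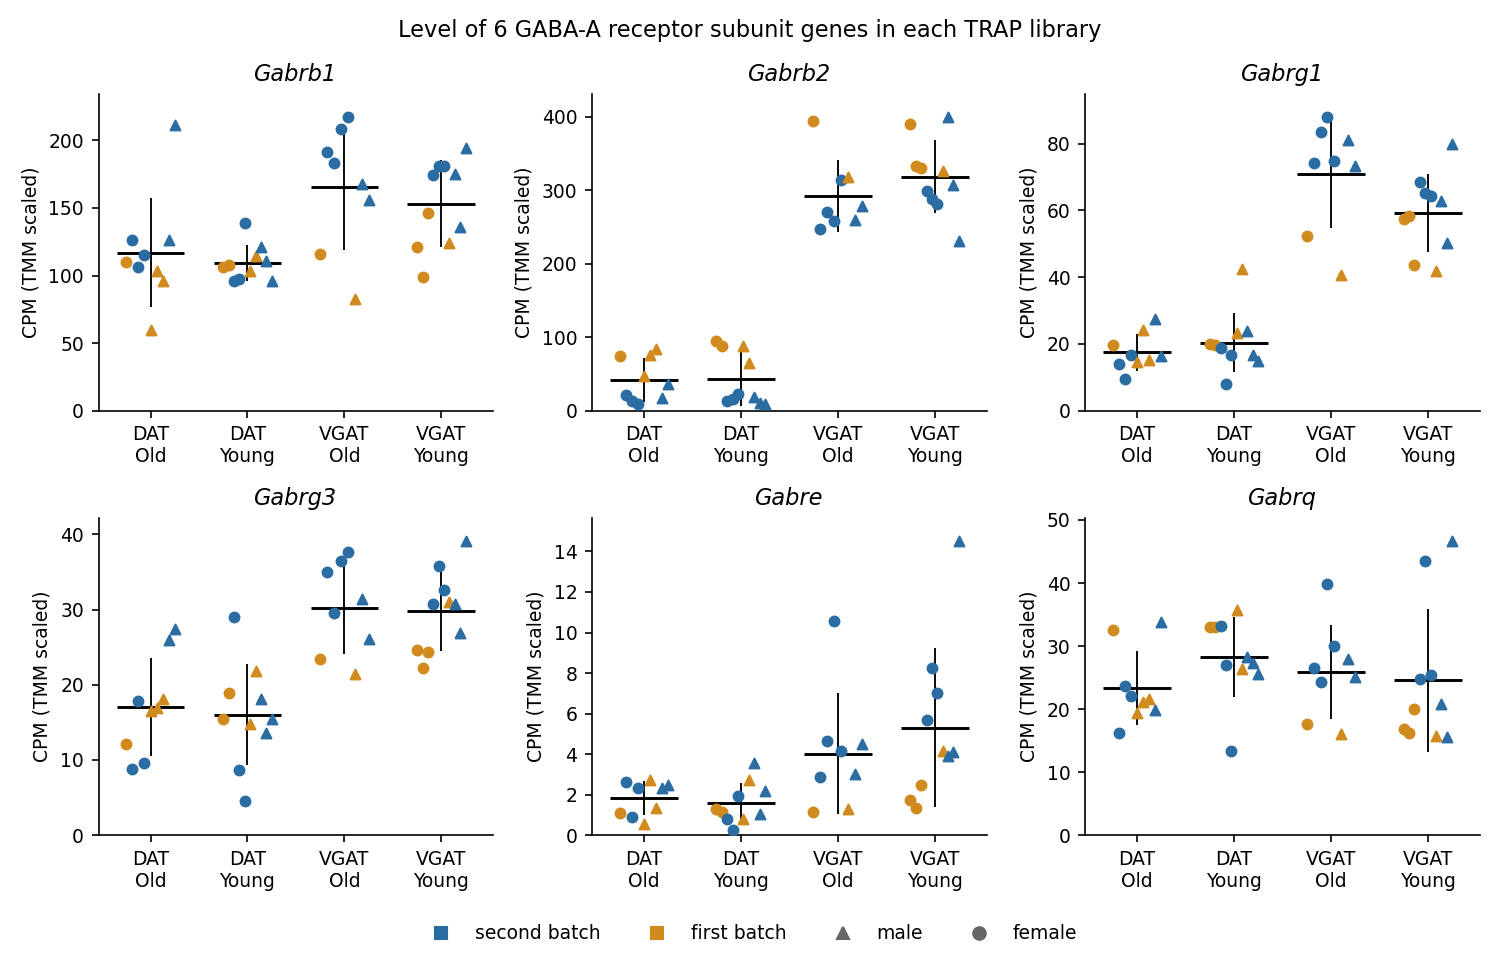
Level (CPM, linear axis from 0) of each gene in every library, for DAT;NuTRAP Old (n = 9) and Young (n = 10) and VGAT;NuTRAP Old (n = 8) and Young (n = 10). Points are libraries, coloured by batch and shaped by sex, and black lines show the mean and SD; for Gabrb2 all DAT;NuTRAP libraries lie below all VGAT;NuTRAP libraries, whereas for Gabrq the ranges overlap.

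Gabrb2, a beta subunit common at adult synapses, showed the largest difference. Its level was 8.45, 22.6 and 95.2 CPM (lowest, median and highest) in the 19 DAT;NuTRAP libraries, against 230.7, 303.1 and 399 CPM in the 18 VGAT;NuTRAP libraries. Every DAT;NuTRAP library was below every VGAT;NuTRAP library, and the log2 fold change was -3.40 ± 0.23 (SE, adjusted p = 1.4e-14). Leaving out any 1 library kept it between -3.51 and -3.32. This estimate from all libraries lay between those within each batch, -4.11 in the second and -2.19 in the first, as described below.

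Gabrb1, also a beta subunit, differed least among the genes called. Its level was 59.5, 107.8 and 211 CPM in DAT;NuTRAP, against 82.9, 171 and 217 CPM in VGAT;NuTRAP. The ranges overlapped in all but 1 DAT;NuTRAP library, and the log2 fold change was -0.43 ± 0.09 (adjusted p = 0.00011).

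Gabrg1, a gamma subunit with little expression in much of the forebrain, ran at 7.91, 16.8 and 42.4 CPM in DAT;NuTRAP, against 40.6, 64.8 and 88.0 CPM in VGAT;NuTRAP. All DAT;NuTRAP libraries but Young male 2 were below every VGAT;NuTRAP library. The log2 fold change was -1.78 ± 0.15 (adjusted p = 3.8e-13).

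Gabrg3, the gamma subunit of the chromosome 7 cluster, ran at 4.56, 16.6 and 29.0 CPM in DAT;NuTRAP, against 21.4, 30.7 and 39.0 CPM in VGAT;NuTRAP. Of the DAT;NuTRAP libraries, 15 lay below every VGAT;NuTRAP library and 4 lay in their range. The log2 fold change was -0.83 ± 0.15 (adjusted p = 1.2e-05).

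Gabre, the epsilon subunit, was the least abundant of the 6 genes. It had 8 to 126 counts per DAT;NuTRAP library and 22 to 475 per VGAT;NuTRAP library. On the CPM scale it ran at 0.27, 1.33 and 3.55 in DAT;NuTRAP, against 1.14, 4.11 and 14.5 in VGAT;NuTRAP. The ranges overlapped, with 11 DAT;NuTRAP libraries inside the VGAT;NuTRAP range, and the log2 fold change was -1.20 ± 0.29 (adjusted p = 0.00049). In Old mice alone it was -0.85 (adjusted p = 0.098), and -1.05 without DAT;NuTRAP Old male 2 (adjusted p = 0.037).

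Gabrq, the theta subunit, was not called. It ran at 13.3, 26.4 and 35.6 CPM in DAT;NuTRAP, against 15.5, 24.5 and 46.6 CPM in VGAT;NuTRAP. The means were 25.9 ± 6.49 CPM in DAT;NuTRAP and 25.1 ± 9.59 CPM in VGAT;NuTRAP, and the log2 fold change was 0.08 (95% interval -0.21 to 0.37, adjusted p = 0.65).

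The size of the cell type difference was not the same in the 2 batches. Tested as the difference in second-batch libraries minus that in first-batch libraries, a test added after the values by library had been seen, 3 of the 6 genes passed: Gabrb2, Gabrg1 and Gabrq (29.1% of all 16898 genes passed, 16.4% with a negative difference). All 6 estimates were negative, with a median of -0.95 over the genes and -0.03 over all genes tested. Within the second batch, 5 of the 6 genes were lower in DAT;NuTRAP, where 56.6% of genes were called in either direction. Within the first batch 3 were lower and 1 was higher, where 43.9% were called in either direction.

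**Figure D3:**
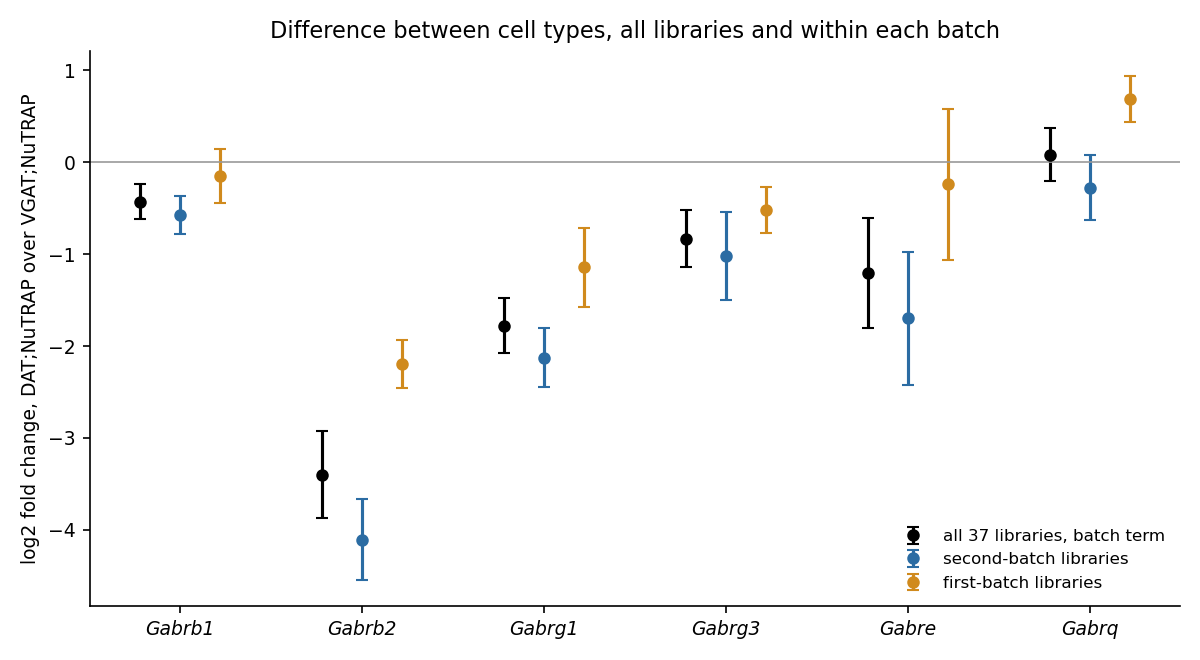
Log2 fold change of DAT;NuTRAP over VGAT;NuTRAP for each gene, with 95% intervals, from all 37 libraries with a batch term (black), second-batch libraries (blue) and first-batch libraries (orange). Each second-batch estimate lies below its first-batch estimate, and for Gabrq the first-batch interval lies above 0.

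Gabrb2 had the largest change between batches. In DAT;NuTRAP it ran at 8.45 to 36.1 CPM in the 11 second-batch libraries, against 47.7 to 95.2 CPM in the 8 first-batch libraries, with no overlap. In VGAT;NuTRAP it averaged 286 ± 43.4 CPM in the second batch and 348 ± 34.1 CPM in the first. The mean was thus 17.0-fold lower in DAT;NuTRAP than in VGAT;NuTRAP in the second batch and 4.51-fold lower in the first. The log2 fold change was -4.11 ± 0.21 within the second batch and -2.19 ± 0.12 within the first, a difference of -1.94 ± 0.27 (adjusted p = 1.1e-06).

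For Gabrq the estimates had opposite signs in the batches. In the second batch it averaged 24.6 ± 6.43 CPM in DAT;NuTRAP and 29.2 ± 9.35 CPM in VGAT;NuTRAP, a log2 fold change of -0.28 ± 0.17 that was not called (adjusted p = 0.18). In the first batch it averaged 27.8 ± 6.50 CPM in DAT;NuTRAP and 17.1 ± 1.60 CPM in VGAT;NuTRAP, where 7 of 8 DAT;NuTRAP libraries lay above every VGAT;NuTRAP library. That log2 fold change was 0.69 ± 0.12 (adjusted p = 0.00012), and the difference between the batches was -0.96 ± 0.25 (adjusted p = 0.0023).

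Gabrg1 was lower in DAT;NuTRAP in both batches, by a log2 fold change of -2.13 ± 0.15 in the second and -1.14 ± 0.20 in the first (difference -0.93 ± 0.26, adjusted p = 0.0054). Gabrg3 was likewise lower in both, at -1.02 ± 0.23 in the second batch and -0.52 ± 0.12 in the first, and these did not differ past the threshold (adjusted p = 0.29). Gabrb1 and Gabre were called within the second batch (-0.57 ± 0.10 and -1.70 ± 0.36) but not within the first (-0.15 ± 0.13, adjusted p = 0.39, and -0.24 ± 0.39, adjusted p = 0.65).

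For these genes the test of the difference between batches gave adjusted p = 0.15 for Gabrb1 and 0.055 for Gabre. Without DAT;NuTRAP Old male 1 or Old male 5 the difference passed for Gabrb1 (adjusted p = 0.031 and 0.0082). For Gabre it passed when any 1 of 8 libraries was left out, at an adjusted p no lower than 0.026.

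The batches were also compared within each model. In DAT;NuTRAP Gabrb2 was the 1 gene of the 6 to pass between second- and first-batch libraries, at -2.19 ± 0.23 on the log2 scale (adjusted p = 1.4e-07), where 34.4% of 14889 genes passed and 17.5% were lower in the second batch. In VGAT;NuTRAP all 6 passed, where 28.9% of 15607 genes did (15% higher and 13.9% lower in the second batch): Gabre was higher in the second batch by 1.75 ± 0.36, Gabrq by 0.78 ± 0.20, Gabrb1 by 0.66 ± 0.11, Gabrg1 by 0.52 ± 0.10 and Gabrg3 by 0.43 ± 0.09, and Gabrb2 was lower, at -0.27 ± 0.09, all as log2 fold changes. A pass in 1 model and not in the other does not show a difference between them; that difference passed for Gabrb2, Gabrg1 and Gabrq, as given above. The labels do not say whether a batch is a collection or a sequencing date, nor whether the first batch of 1 model was handled with the first batch of the other. In VGAT;NuTRAP, Young mice were 9 months old in the first batch and 7 to 8.5 months old in the second. The Old female of 24 months was of the first batch. The part of age in months in the batch differences was not tested.

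Other measures moved with the batch in both models, but not all of them in both. In DAT;NuTRAP, second-batch libraries had counts for 14323 to 18170 genes, against 19085 to 21051 in first-batch libraries. Summed oligodendrocyte markers were 996 to 2087 CPM in the second batch and 406 to 606 CPM in the first. In the same libraries Gad1 averaged 98.8 ± 26.3 CPM in the second and 184 ± 32.3 CPM in the first. The 8 GABA neuron markers did not move together there. In the second batch 2 were lower, 1 was higher and 5 did not pass (median log2 fold change -0.36). Of the markers of other cells, 7 of 9 oligodendrocyte, 7 of 10 astrocyte and 4 of 8 microglia markers were higher in the second batch. In VGAT;NuTRAP, 5 of 8 GABA neuron markers were lower in the second batch and 1 was higher (median log2 fold change -0.72), with Gad1 at 1637 ± 220 CPM in the second and 2120 ± 207 CPM in the first. Of 4 serotonin neuron markers in VGAT;NuTRAP, 2 were higher in the second batch and none was lower (median 1.18). In that model 0 of 9 oligodendrocyte and 0 of 8 microglia markers passed, and of 10 astrocyte markers 2 were higher and 1 was lower. Its libraries had counts for 18485 to 21803 genes in the second batch and 19482 to 21176 in the first. The part of these in the batch differences of the 6 genes was not tested.

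The X-linked pair Gabre and Gabrq shared their highest libraries. In VGAT;NuTRAP, Young male 4, Old female 4 and Young female 5 were the highest for Gabre, at 14.5, 10.6 and 8.24 CPM, where the other 15 libraries lay at or below 7.03 CPM. The same libraries were the highest for Gabrq, at 46.6, 39.8 and 43.6 CPM, where the other 15 lay at or below 29.9 CPM. All belong to the second batch. Both subunits are known from noradrenergic and serotonergic nuclei. Of the markers of these neurons, the summed noradrenaline list stayed at or below 0.34 CPM in every VGAT;NuTRAP library. Of the 4 serotonin neuron markers in VGAT;NuTRAP, Tph2 averaged 4.596 CPM, Slc6a4 1.49 CPM and Fev 0.416 CPM, and Htr1a, a serotonin receptor gene, averaged 51.5 CPM and made up most of the sum. That sum was 51.6, 73.2 and 55.7 CPM in these 3 libraries, against a range of 32.8 to 84.7 CPM over VGAT;NuTRAP. The part of such neurons in the levels of Gabre and Gabrq was not tested.

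**Figure D4:**
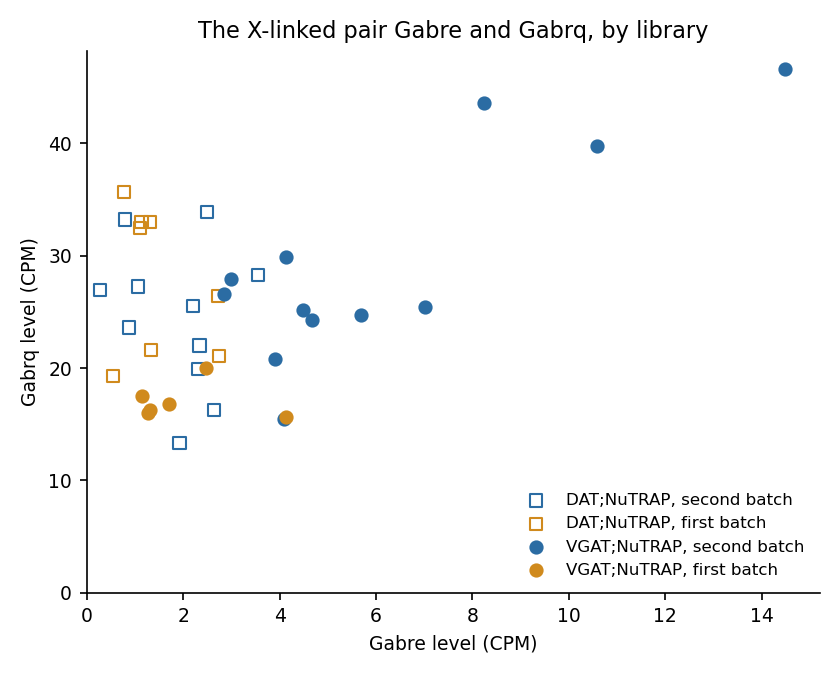
Level of Gabrq (vertical, CPM) against Gabre (horizontal, CPM) in each of 19 DAT;NuTRAP libraries (open squares) and 18 VGAT;NuTRAP libraries (filled circles), coloured by batch, both axes linear from 0. The 3 VGAT;NuTRAP libraries above 8 CPM of Gabre are also the 3 highest for Gabrq.

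The second comparison asked what changes with age. No member was called between Old and Young mice in either model. In DAT;NuTRAP edgeR called 1 of 14889 genes (0.00672%), and in VGAT;NuTRAP it called 4 of 15607 genes (0.0256%). No member had an unadjusted p under 0.05 in either, and DESeq2 called none of them. The median log2 fold change over the 6 genes was 0.09 in DAT;NuTRAP, against 0.0025 over all genes tested, and -0.04 in VGAT;NuTRAP, against -0.00095. Nor did any of the 6 pass the study's wider cutoff when it was applied to these edgeR fits. That cutoff is an adjusted p below 0.5 with an absolute log2 fold change above 0.5. Here 0.101% of genes passed it in DAT;NuTRAP and 0.199% in VGAT;NuTRAP. The study applied it to DESeq2 results, after removing astrocyte and microglia genes and correcting for more batch variables. It reported more genes in both models, so these shares are not the study's own.

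**Figure D5:**
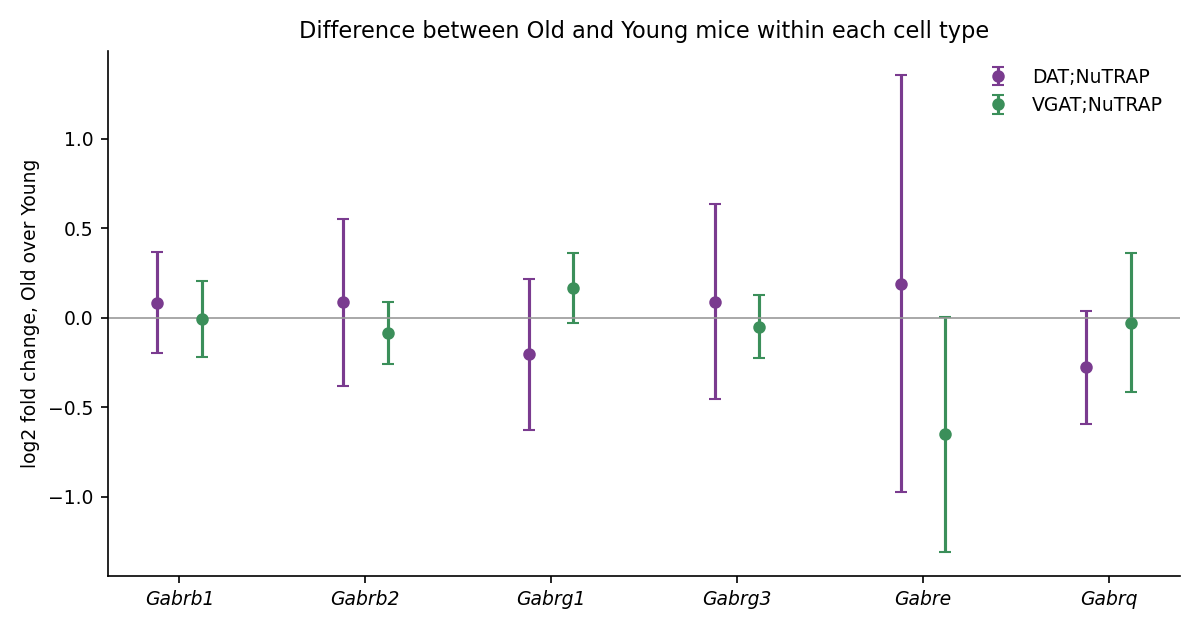
Log2 fold change of Old over Young for each gene, with 95% intervals, in DAT;NuTRAP (19 libraries) and VGAT;NuTRAP (18 libraries), from fits with batch. Every interval includes 0.

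The intervals differ in width and so in what they can show. Gabrb2 was the most tightly bounded in VGAT;NuTRAP, at 247, 274 and 395 CPM in Old mice, against 231, 316 and 399 CPM in Young mice. The ranges overlapped, and the log2 fold change was -0.08 (95% interval -0.26 to 0.09). In DAT;NuTRAP Gabrb2 ran at 8.45, 36.1 and 84.3 CPM in Old mice, against 9.71, 20.4 and 95.2 CPM in Young mice, a log2 fold change of 0.09 with a wider interval of -0.38 to 0.55. Each age group there held libraries of both batches. Age estimates in DAT;NuTRAP were also made within each batch, with no member called. In the first batch they were -0.52 for Gabrg1, -0.45 for Gabrq, -0.26 for Gabrb2, -0.24 for Gabrb1, -0.16 for Gabrg3 and -0.08 for Gabre. In the second they were 0.03, -0.15, 0.35, 0.32, 0.28 and 0.38 in the same order. The first-batch interval of Gabrq, -0.79 to -0.11, lay below 0 (adjusted p = 0.34). The difference between batches in these age estimates was not tested.

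Gabrb1 in DAT;NuTRAP ran at 59.5, 109.9 and 211 CPM in Old mice, against 96.1, 106.9 and 139 CPM in Young mice. The lowest and the highest of all 19 libraries were both from Old males, male 1 and male 5. The log2 fold change was 0.09 (95% interval -0.20 to 0.37), and -0.05 without Old male 5. In VGAT;NuTRAP Gabrb1 ran at 82.9, 176 and 217 CPM in Old mice, against 98.8, 160 and 195 CPM in Young mice, a log2 fold change of -0.01 (-0.22 to 0.20). In that model 2 of 8 Old and 4 of 10 Young libraries were of the first batch. Its medians by age thus mix the batches unevenly, whereas the fold changes over both batches are from fits with batch.

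Gabrg1 in VGAT;NuTRAP ran at 40.6, 74.4 and 88.0 CPM in Old mice, against 41.9, 60.6 and 79.8 CPM in Young mice. The ranges overlapped over both batches, and the log2 fold change was 0.17 (-0.03 to 0.36, adjusted p = 0.86). Within the second batch Old mice averaged 79.1 ± 5.96 CPM (SD, n = 6) and Young mice 65.2 ± 9.54 CPM (SD, n = 6), a log2 fold change of 0.29 ± 0.08 that did not pass after adjustment (adjusted p = 0.13, with 0.333% of genes called). Within the first batch it was -0.12 ± 0.17, from 2 Old and 4 Young mice (0% of genes called). In DAT;NuTRAP Gabrg1 ran at 9.41, 16.3 and 27.4 CPM in Old mice, against 7.91, 19.2 and 42.4 CPM in Young mice, a log2 fold change of -0.20 (-0.63 to 0.22).

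Gabre in VGAT;NuTRAP ran at 1.14, 3.57 and 10.6 CPM in Old mice, against 1.32, 4.11 and 14.5 CPM in Young mice. The groups overlapped over nearly their whole range. Its log2 fold change of -0.65 was the largest age estimate among the 6 genes in either model (95% interval -1.31 to 0.01, adjusted p = 0.83), and it ranged from -0.93 to -0.42 as single libraries were left out. In DAT;NuTRAP it was 0.19, with an interval of -0.97 to 1.36, too wide to bound a change at 8 to 126 counts per library.

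Gabrq in DAT;NuTRAP ran at 16.3, 21.6 and 33.9 CPM in Old mice, against 13.3, 27.8 and 35.6 CPM in Young mice. The middle of the Old group lay lower but the ranges overlapped, and the log2 fold change was -0.28 (-0.59 to 0.04, adjusted p = 0.97). In VGAT;NuTRAP Gabrq gave -0.03 (-0.42 to 0.36). Gabrg3 gave 0.09 (-0.45 to 0.63) in DAT;NuTRAP and -0.05 (-0.22 to 0.13) in VGAT;NuTRAP, with 17.0 ± 6.48 CPM in Old and 16.0 ± 6.74 CPM in Young DAT;NuTRAP mice.

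The age difference was also set against cell type and sex. The age-by-cell-type test called none of 16898 genes (0%), with 467 at an unadjusted p under 0.05 and 1 called by DESeq2, and its estimates for the 6 genes ran from -0.48 for Gabrg1 to 0.71 for Gabre on the log2 scale (DAT;NuTRAP minus VGAT;NuTRAP). Age by sex called no gene in DAT;NuTRAP (0%; 561 genes at an unadjusted p under 0.05 and 5 called by DESeq2) or in VGAT;NuTRAP (0%; 798 genes at an unadjusted p under 0.05 and 0 called by DESeq2). Within males or females alone no member was called, where 0% of genes were called in DAT;NuTRAP males and in DAT;NuTRAP females (868 and 601 at an unadjusted p under 0.05, 7 and 31 called by DESeq2), 0.0315% in VGAT;NuTRAP males and 0.032% in VGAT;NuTRAP females. The lowest unadjusted p values there were 0.028 for Gabrg1 in VGAT;NuTRAP females (0.19 ± 0.08) and 0.031 for Gabre in VGAT;NuTRAP males (-1.18 ± 0.48), with adjusted p = 0.89 and 0.94. Males against females of either model likewise gave no call among the 6 genes (0.148% of genes called in DAT;NuTRAP and 0.0641% in VGAT;NuTRAP). Gabrg1 was at 0.43 ± 0.19 in DAT;NuTRAP (adjusted p = 0.88) and Gabrb1 at -0.21 ± 0.09 in VGAT;NuTRAP (adjusted p = 0.43).

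The rest of the receptor and its partners give the setting for these values, from lists chosen as pathway background. Among the alpha subunit genes of the same clusters, Gabra2 and Gabra5 were lower in DAT;NuTRAP by a log2 fold change of -1.76 each. Gabra4, which lies between Gabrg1 and Gabrb1, was higher in DAT;NuTRAP, with 77.1 ± 19.2 CPM in DAT;NuTRAP and 37.8 ± 6.13 CPM in VGAT;NuTRAP (0.96 ± 0.09). Gabra6 and Gabrp had no count in any of the 37 libraries.

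Neighbours within a cluster did not all move alike. On chromosome 5 Gabrg1, Gabra2 and Gabrb1 were lower in DAT;NuTRAP and Gabra4 was higher. On chromosome 7 Gabrg3 and Gabra5 were both lower. On the X chromosome Gabra3 was lower by a smaller step (-0.46 ± 0.07), between Gabre, which was lower, and Gabrq, which was not called.

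Over all genes tested between the cell types, 30.4% were lower in DAT;NuTRAP and 30% higher. Of 12 genes of the inhibitory postsynapse and receptor auxiliary proteins, 9 were lower in DAT;NuTRAP and 1 was higher, with a median of -0.56. They include Gphn (gephyrin, the scaffold that anchors the receptors, -1.02 ± 0.08), Mdga1 (a brake on neuroligin, -1.90 ± 0.11) and Iqsec3 (a gephyrin partner, -0.68 ± 0.07). Of 15 assembly and trafficking genes, 11 were lower and 4 higher, with a median of -0.31. Plcl1, which binds beta subunits and guides receptor trafficking, was at -1.65 ± 0.09 and Gabarap, a carrier for gamma-subunit receptors, at 0.66 ± 0.06. Of 10 chloride transport genes, 7 were lower and 1 higher, with a median of -0.48. Among those lower was Slc12a5, the neuronal chloride exporter (-0.995 ± 0.046). No gene named here from these lists passed in any age comparison.

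The genes whose pattern over the 8 groups of model, age and sex lay nearest each member were found among 13834 genes by the root mean square distance of centred log2 CPM. The group means were not adjusted for batch, and the groups held the batches in unequal parts. The part of batch in these distances was not tested. Nearest to Gabrb2 were Syndig1, Chrm2 and Gad2, at 0.17, 0.17 and 0.22, where Gabrb2 itself varied by 1.69 about its mean. Nearest to Gabrg1 were Syn2, Pcsk5 and Gm15721 (0.12 to 0.14). Gabrg3 lay near Ep300 and Atm (0.07 to 0.09), and Gabre nearest Galnt18, Gm49654 and Ccnd1 (0.18 to 0.19). Gabrb1, nearest Slx4, Polr2a and Fzd3, and Gabrq, nearest Mblac2, Lyar and Tmem200a, varied little between groups (0.26 and 0.13).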

How the data were processed

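The authors trimmed the reads, mapped them to mm39 (GRCm39) using STAR 2.7.10b and counted them per gene with featureCounts, whose version and strand setting are not given in the sources used here. The deposited values are raw counts per gene from the GFP-bound fraction, 1 column per mouse, made before the filtering, gene removal and batch correction that the study applied afterwards. Input fractions are not used here.

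Counts were tested with edgeR 4.0.16 in R 4.3.3 (TMM scaling, a filter on low counts with a minimum of 10, robust quasi-likelihood fits) with Benjamini-Hochberg adjustment over all genes tested, and a gene was called at an adjusted p below 0.05. Cell types, their differences within an age and the age-by-cell-type difference came from 1 fit of all 37 libraries with batch as a term. Age, sex and age by sex came from a fit of each model with batch. The difference of the cell types between batches and the batch comparison within each model were added after the values by library had been seen. Adjusted p values in the text are from edgeR unless DESeq2 (1.42.0) is named, and ± after a log2 fold change is the standard error. The scripts were tested on simulated data with known changes. A log2 change of 0.5 was recovered for 42.9% of changed genes for age in DAT;NuTRAP and 50% in VGAT;NuTRAP. It was recovered for 35.9% between cell types, 21.5% for age by cell type and 15.2% for cell type by batch. A change of 1 was recovered for 62.9%, 73.8%, 68.7%, 41.8% and 53.1% in the same order.

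Alternatives were DESeq2, other scaling factors, no filter or a stricter one with a minimum of 50, no batch term, batch nested in model, each batch alone, sex or library size as a covariate, a narrower range of ages, replicate numbers as a block, and leaving out each library. Replicate numbers did not pair the libraries, so no block entered the results given. In 70 pairs of libraries of 1 group the counts differed by more than sampling noise (lowest chi-square per degree of freedom 5.46). The members and the gene lists were chosen with earlier results of these data known. The genes named were the 6 members, the label genes, the 3 genes nearest each member among those with a mean of at least 1 CPM (log2 of CPM plus 0.5), the receptor genes in the same clusters, and up to 4 genes of smallest p per pathway list. Promoter windows were read from the GRCm39 sequence with GENCODE M39. Some genes that this rule names are not reported here.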

Additional observations from a re-analysis of the deposited data

Results flagged for a closer look

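Single libraries stood far from the others of their group in 11 cases, 5 of 24 gene-by-group sets by model and age and 6 of 42 by model, age and sex, by the gap to the nearest library as a share of the group's range. Chance alone would flag about 1 in 20 such sets if values followed a normal distribution around 1 level, and the sets overlap. Here the sets pool CPM of both batches, and the rate for such values was not tested. By model and age, Gabrb1 was highest in DAT;NuTRAP Old male 5 (211 CPM), Gabrg1 in DAT;NuTRAP Young male 2 (42.4 CPM), Gabre in VGAT;NuTRAP Old female 4 (10.6 CPM) and in VGAT;NuTRAP Young male 4 (14.5 CPM), and Gabrq was lowest in DAT;NuTRAP Young female 5 (13.3 CPM). By sex as well, Gabre again stood out in VGAT;NuTRAP Young male 4. Gabrq was highest among DAT;NuTRAP Old males in male 5 (33.9 CPM), among DAT;NuTRAP Young males in male 1 (35.6 CPM) and among VGAT;NuTRAP Young females in female 5 (43.6 CPM). Among DAT;NuTRAP Young females, Gabrb1 was highest in female 5 (139 CPM) and Gabrg1 lowest in female 4 (7.91 CPM).

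The cell type difference was itself different between the batches for 3 genes, with log2 differences, second minus first batch, of -1.94 for Gabrb2, -0.96 for Gabrq and -0.93 for Gabrg1. The cause was not tested.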

How the results depend on the processing

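The 5 calls of the cell type comparison over both ages were kept whichever library was left out, and no called difference of the 6 genes between cell types, or between batches in that difference, turned in direction under the alternatives run for it. The batch comparisons within each model were run under no alternative. Leaving out 1 library gave 4 to 5 members called in Old mice and 3 to 5 in the difference between batches, where leaving out DAT;NuTRAP Old male 1 or Old male 5 gave 5. In first-batch libraries alone Gabrb1 and Gabre were not called (-0.15 and -0.24) and Gabrq was called higher (0.69). In Old mice, Gabrb1 was not called with batch nested in model (-0.33, adjusted p = 0.051), and Gabre was called with no batch term (-1.15, adjusted p = 0.038) and also from the second batch by itself (-1.24, adjusted p = 0.049). With no filter on low counts, 1 member was called for sex in VGAT;NuTRAP (Gabrb1, -0.22, adjusted p = 0.0066) and 1 for age in VGAT;NuTRAP males (Gabre, -1.18, adjusted p = 0.041). Calls over all genes also rose without the filter, to 460 for that sex comparison, against 10 with it. For age in VGAT;NuTRAP males they rose to 80, against 5. The median of all genes between the cell types moved to -0.14 without the filter. Replicate numbers as a block gave the same 5 members called between cell types over both ages and 0 for age in either model. Same-numbered libraries correlated from -0.34 to 0.51 in DAT;NuTRAP and from -0.19 to 0.60 in VGAT;NuTRAP, over 0.1 in 6 of 9 and 5 of 8 pairs. Their negative pairs were of different batches. Differently numbered libraries of the same batch reached 0.49 in DAT;NuTRAP and 0.50 in VGAT;NuTRAP. The block moved the count of genes called for sex to 256 in DAT;NuTRAP, against 22 without it, and to 1 in VGAT;NuTRAP, against 10.

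Counts over all genes depended more on the settings. For age, DESeq2 called 13 genes in DAT;NuTRAP and 23 in VGAT;NuTRAP, and second-batch libraries alone gave 52 in VGAT;NuTRAP. For sex, DESeq2 called 71 in DAT;NuTRAP and 73 in VGAT;NuTRAP, no filter gave 132 and 460, and first-batch libraries alone gave 1008 in VGAT;NuTRAP. Between cell types, first-batch libraries alone gave 5373 genes in Young and 4651 in Old mice. Depth limits Gabre most, at 8 to 126 counts per DAT;NuTRAP library.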
